A study of Mus musculus with 6 samples.

Results

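Antigen presentation and interferon signalling genes are described here in cultured mouse squamous cell carcinoma cells (SCCc), from their RNA, their ribosome footprints and the length of coding sequence (CDS) over which they were counted. The 8 genes were given by name, B2m, H2-K1, H2-D1, Tap1, Tap2, Tapbp, Irf1 and Cd274, and a row of the gene counts was taken when its name equalled a gene of the list or joined that gene with others. The rule found 8 of 23698 rows, 1 for each gene, and the row of H2-D1 carried the joined name H2-D1,H2-L. The study compared transcript isoforms and their translation between wild-type and tumour keratinocytes of mouse skin. Its SCCc have the genotype HrasG12V; Tgfbr2 fl/fl KO and derive from primary keratinocytes of back skin at postnatal day 0, used at passages 10 to 15. Gene counts of these cells were available from 1 library of ribosome profiling and 2 replicates of RNA-seq, and the wild-type libraries, the long-read libraries and further SCCc libraries that the study took from elsewhere were not analysed here. The labels do not say whether the RNA-seq replicates are separate cultures, so their spread can be technical alone, and no replicate of the ribosome profiling library was among the data analysed.

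Cells display fragments of their own proteins on MHC class I molecules, which pair a heavy chain such as H2-K or H2-D with the light chain beta-2-microglobulin. The TAP transporter, built from Tap1 and Tap2, carries peptides into the endoplasmic reticulum, where tapasin helps to load them. Interferons induce most of these genes through JAK-STAT signalling and the factor Irf1, and they also induce the T cell inhibitory ligand PD-L1, the product of Cd274, so that keratinocytes exposed to interferon present more peptide.

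Ribosome profiling reads out the stretches of mRNA covered by ribosomes, called footprints, and RNA-seq samples whole mRNA. Exon counts totalled 3549555 for ribosome profiling, and 10707930 and 14003713 for replicates 1 and 2 of RNA-seq. The CDS held 93.4% of the footprints assigned to a gene region, against 68.7% and 70.2% of the RNA-seq counts. Levels are given in RPKM, reads per kilobase of counted sequence, scaled to the exon counts of the library. Translational efficiency divides the RPKM of CDS footprints by the RPKM of RNA-seq on exons, averaged over the replicates, and is given on the log2 scale, relative to the median of the 9862 genes that passed the filters. Those genes exceeded 1 RPKM in each RNA-seq replicate and a base mean of 25 (counts averaged over the libraries after scaling for depth), and had footprints on the CDS. Of the 8 genes, 7 passed and Cd274 did not, where 9862 of all 23698 rows passed. The error given with a translational efficiency is the SD over the RNA-seq replicates (n = 2), and its 95% interval is the exact binomial interval of the counts. Intervals and floors cover counting error only.

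The labelled cell type was checked against markers of keratinocytes, of which 12 of 12 passed the filters. Their summed level was 16354 RPKM in footprints and 20796 and 23247 RPKM in RNA-seq, with Krt5 the most abundant at a mean of 8724 RPKM in RNA-seq and Krt14 next. Their median log2 translational efficiency was -0.23, with 4 above the median of all genes, 0 above 1 and 4 below -1, from Dsp (-2.63) and Col17a1 (-1.95) to Cdh1 (0.49) and Sfn (1.00). Of all passing genes, 20.7% were above 1 and 21.1% below -1. Markers of haematopoietic cells, which express many antigen presentation genes strongly, summed to 10.3 RPKM in footprints and to 39.6 and 51.2 RPKM in RNA-seq replicates 1 and 2. Most of this was Cd68, a lysosomal gene and the 1 gene of 15 that passed the filters (log2 translational efficiency -2.15), and without it the list summed to 0 RPKM in footprints and to 4.53 and 13.8 RPKM in RNA-seq. The defining lymphocyte markers Cd3e, Cd4, Cd8a and Ms4a1 were at 0 in all 3 libraries. In these bulk libraries, fewer cells of a type and less RNA per cell cannot be told apart.

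The replicates of RNA-seq stand apart in some of these marker genes. The log2 ratio of replicate 2 over 1 in RNA-seq, scaled to library totals, was above 1 in 0 of the 8 antigen presentation and interferon genes, against 0.843% of 11741 genes with a mean of at least 10 counts. It ranged from -0.42 in Cd274 to 0.35 in Tap1, and its SD over those 11741 genes was 0.29. Among haematopoietic markers with enough counts, 3 of 4 were above 1, and Lyz2 went from 30.7 counts in replicate 1 to 127 counts in replicate 2. The others were Tyrobp and Laptm5, named after their values were seen, and all 3 genes had 0 footprints. Markers of fibroblasts were above 1 in 2 of 9 genes, Col1a1 and Postn, also named after their values were seen and also at 0 footprints. Of the 12 fibroblast markers 3 passed the filters, with a median log2 translational efficiency of 1.24, and the list summed to 32.3 RPKM in footprints and to 21.9 and 31.7 RPKM in RNA-seq, with Fbln1 highest at a mean of 6.01 RPKM and Col3a1 next at 0 footprints. Markers of endothelial cells and melanocytes summed to 1.21 RPKM in footprints and to 5.96 and 6.17 RPKM in RNA-seq, led by Pmel with 2 footprints, the 1 gene of 9 that passed, and followed by Kdr. The part of such cells in the values below was not tested.

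**Figure D1:**
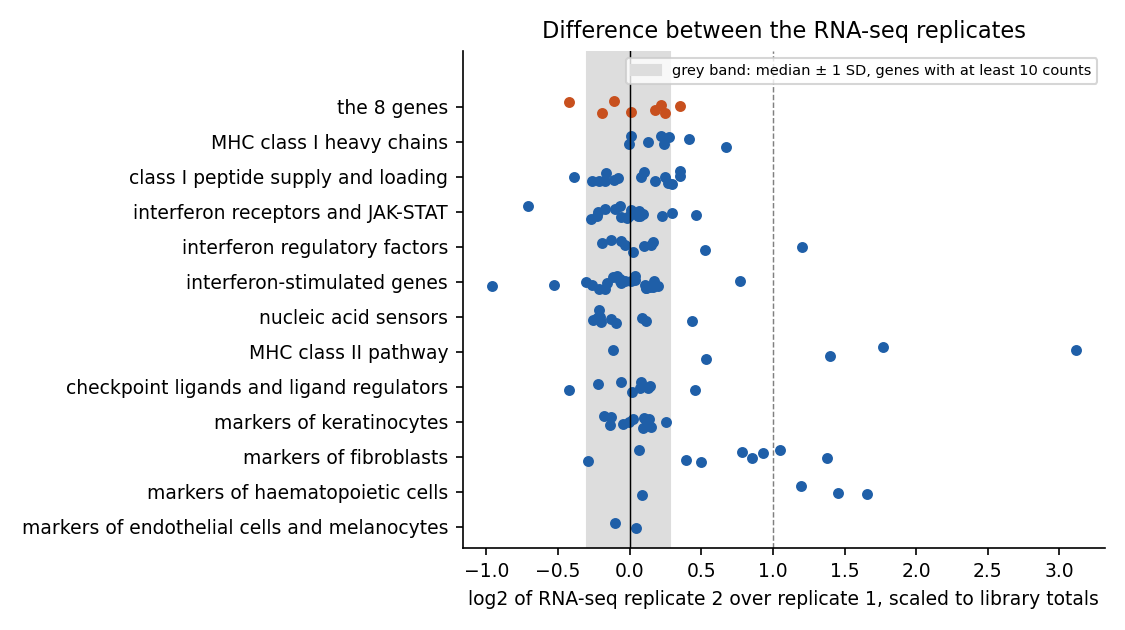
Log2 ratio of replicate 2 over 1 in RNA-seq, scaled to library totals, on the x axis for genes with a mean of at least 10 counts. Each point is a gene, in the list named on the y axis. The 8 antigen presentation and interferon genes lie between -0.42 and 0.35, while several markers of haematopoietic cells and of the MHC class II pathway lie above 1.

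The coding sequences of the heavy chains are shown first, and the length over which each was counted is set beside them below. In GENCODE M21 (GRCm38), H2-K1 lies at chr17:33996017-34000347 on the minus strand and H2-D1 at chr17:35262730-35267499 on the plus strand. Their main coding sequences of 1107 and 1086 bases were identical at 985 of 1077 aligned bases, or 91.5%. Of 1015 windows of 30 bases, about the length of a footprint, 242 (23.8%) were the same in both genes. A window that does not differ, bases 46 to 75 of H2-K1 and 55 to 84 of H2-D1, has this sequence in the GENCODE M21 transcripts of both.
H2-K1: ccgactcagacccgcgcgggcccacactcg
H2-D1: ccgactcagacccgcgcgggcccacactcg
The window that differs most, bases 504 to 533 of H2-K1 and 513 to 542 of H2-D1, has 10 differing bases, given in capitals.
H2-K1: ggagcagGCtggtgAAgcagagAGACTcaG
H2-D1: ggagcagAGtggtgCTgcagagCATTAcaA
A footprint from the former window has no base that tells the pair apart, and a footprint from the latter has up to 10.

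Windows of 30 bases were then compared with the transcripts of all other genes. In H2-K1, 348 of 1078 windows (32.3%) occurred in at least 1 of 36 other genes, and in H2-D1 449 of 1057 windows (42.5%) in at least 1 of 37 others. These genes are mostly other class I heavy chains and their pseudogenes, with H2-Q4 and H2-Q1 sharing most after the pair itself. Tap1 and Tap2 shared 45 windows with each other and with no other gene, 2.10% and 2.17% of their windows, in a single run of 74 bases. B2m, Tapbp, Irf1 and Cd274 had 0 shared windows. Of all genes that passed the filters, 69.2% shared none, and 10.6% shared at least as large a part as H2-K1.

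The counted CDS also differed between the heavy chains. The row H2-D1,H2-L was counted over 619 bases, 57.0% of its longest annotated CDS and 54.2% of the union of its annotated CDS, while H2-K1 was counted over 1107 bases, all of its longest CDS and 93.7% of the union. Only 3.59% of the passing genes had as small a counted share of the union as H2-D1. The other genes were counted almost in full, with 2125 of 2172 bases in Tap1, 2059 of 2106 in Tap2 and all bases of the union in B2m (357), Irf1 (1043) and Cd274 (870). Tapbp was counted over 1398 of 1442 bases. The median share of the union over the 8 genes was 97.8%, and over all passing genes it was 99.2%.

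The counted length was compared with the number of positions whose window of 29 bases occurs in no other gene. In H2-D1, Tap1 and Tap2, 3 of the 4 genes with shared windows, both lengths were equal to the base, at 619, 2125 and 2059. B2m, Tapbp and Cd274 share no window and were counted over the full length of their main CDS, as were 91.2% of 3008 passing genes with a single annotated CDS and no shared window. The window of 29 bases was chosen after the values were seen, out of lengths from 26 to 32. H2-K1 differed, with 743 such positions and 1107 counted, and Irf1, which shares no window, was counted over its union of 1043 bases while its main CDS has 987. Across passing genes with a single annotated CDS and shared windows, the equality held in 139 of 1517 genes (9.16%), and 783 (51.6%) were counted in full. The counts of H2-K1 therefore cover positions that match other class I genes, the counted length of H2-D1 equals its unshared positions, and a comparison of the pair carries that difference in counting.

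**Figure D2:**
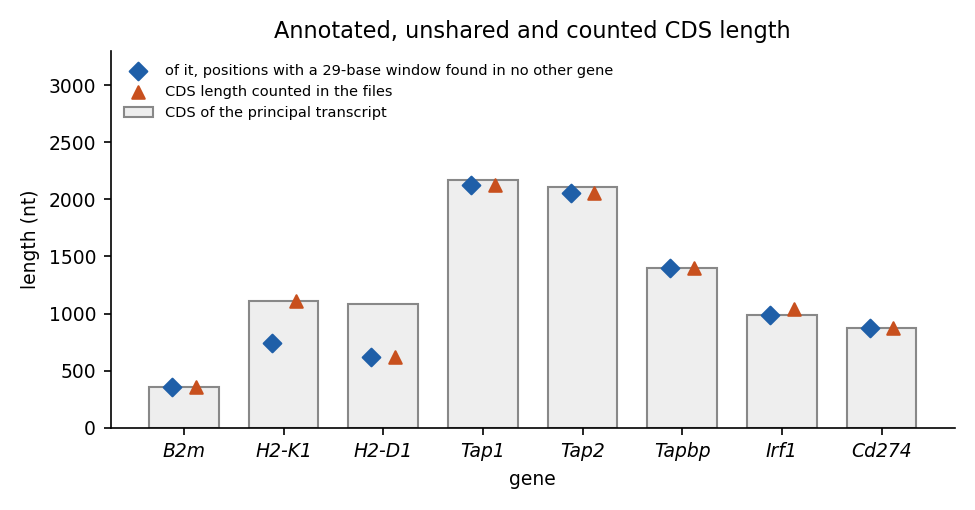
Counted CDS, CDS of the principal transcript and its positions whose window of 29 bases occurs in no other gene, in bases on the y axis, for the 8 genes on the x axis. H2-D1 is counted over 619 bases, the number of its unshared positions, and H2-K1 over 1107 bases, above its 743 unshared positions.

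B2m encodes the light chain of every classical class I molecule and lies at chr2:122147686-122153083 on the plus strand. Its CDS held 226 footprints, and its exons held 555 and 673 counts of RNA-seq replicates 1 and 2. These correspond to 179 RPKM in footprints and to 60.4 and 56.0 RPKM in RNA-seq. Its log2 translational efficiency was 1.28 ± 0.06 (interval 1.06 to 1.48), at percentile 84.7 of the passing genes and the only value above 1 among the 7 genes that passed, where 20.7% of all passing genes lie above 1. This order depends on the setting, since without division by length H2-K1 was at 1.26 and B2m at 1.02, and with RNA-seq counted over the CDS H2-K1 was at 0.95, above B2m. The value of B2m fell below 1 when RNA-seq was counted over the CDS (0.87) and with at least 100 counts required in every library (0.88). RNA-seq coverage of B2m was denser on the CDS, at 96.9 and 91.9 RPKM, than on the 3′UTR, at 31.9 and 25.8 RPKM.

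The footprints of B2m also reached into its 3′UTR. Of 246 footprints, 13.6 were assigned to the 3′UTR, a share of 5.52% (exact binomial interval 3.15% to 9.36%), and 5.94 to the 5′UTR, a share of 2.42%. Over the 4894 passing genes with at least 100 CDS footprints, the median share on the 3′UTR was 0.968%, and 6.40% of them had a share at least as large as that of B2m. The shares of H2-K1 and H2-D1 were 0.436% and 0.700%, and each rested on fewer than 2 footprints.

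H2-K1, a classical heavy chain, had 209 footprints and 388 and 590 RNA-seq counts. Its level was 53.1 RPKM in footprints and 22.02 and 25.6 RPKM in RNA-seq, with a log2 translational efficiency of 0.82 ± 0.17 (interval 0.59 to 1.03), and of 0.42 with at least 100 counts required in every library. H2-D1, the other classical heavy chain of the list, had 164 footprints and 681 and 898 RNA-seq counts. It stood at 74.5 RPKM in footprints and at 59.8 and 60.3 RPKM in RNA-seq, which gave a log2 translational efficiency of -0.03 ± 0.02 (interval -0.27 to 0.20). H2-D1 was thus at the median of all genes, and its sign was positive when RNA-seq was counted over the CDS (0.24) or counts were not divided by length (0.20). With at least 100 counts required in every library it was -0.42. The log2 ratio of H2-K1 to H2-D1 was -1.44 and -1.24 in the RNA-seq replicates and -0.49 in footprints (interval -0.79 to -0.18), so H2-D1 was higher per counted base in every library.

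The light chain was compared with the sum of H2-K1 and H2-D1, per counted base. The log2 ratio of B2m to H2-K1 plus H2-D1 was -0.44 and -0.62 in the RNA-seq replicates, and 0.49 in footprints (interval 0.24 to 0.73). The light chain was thus below the sum of H2-K1 and H2-D1 in RNA and above it in footprints. Other heavy chains were not in the sum, among them H2-T23, at means of 58.3 RPKM in RNA-seq and 41.6 RPKM in footprints. H2-T22,H2-T9, at 32.2 and 9.66 RPKM, was not in it either, so the ratio does not describe all heavy chains. The sum also carries the difference in counting between H2-K1 and H2-D1. The RNA value depends on the region counted, since its mean of -0.53 (SD 0.13) became 0.11 when the CDS alone was counted, a setting added once the data had been seen.

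The transporter subunits Tap1 and Tap2 lie beside each other on the plus strand, at chr17:34187553-34197225 and chr17:34203527-34216321. Tap1 had 60.1 footprints and 362 and 605 RNA-seq counts, or 7.96 RPKM in footprints and 11.6 and 14.9 RPKM in RNA-seq. Tap2 had 25.7 footprints and 211 and 328 RNA-seq counts, or 3.52 RPKM in footprints and 8.06 and 9.57 RPKM in RNA-seq. Both were below the median of all genes in mean RNA-seq level and in footprints. Their log2 translational efficiencies were -1.08 ± 0.26 for Tap1 (interval -1.48 to -0.70) and -1.67 ± 0.19 for Tap2 (interval -2.29 to -1.10), at percentiles 19.5 and 10.4. They were the 2 of 7 genes below -1, a range that holds 21.1% of all passing genes. Tap1 crossed -1 under several settings, at -0.89 against replicate 1 alone (without replicate 2), -0.98 with a pseudocount of 1 RPKM, -0.88 with RNA-seq counted over the CDS and -0.52 without division by length. Tap2 rose above -1 without division by length, at -0.90.

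The subunits pair in 1 transporter, so their ratio was computed within each library. Per counted base, the log2 ratio of Tap1 to Tap2 was 0.53 and 0.64 in the RNA-seq replicates, with a mean of 0.59 (SD 0.07), and 1.18 in footprints (interval 0.49 to 1.90). Tap1 was higher in all 3 libraries. The RNA value lies inside the counting interval of the footprint value, so a difference between RNA and footprints was not detectable at this depth.

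Tapbp encodes tapasin and lies at chr17:33915899-33929292 on the plus strand, in the same region of chromosome 17 as the heavy chains and the transporter. It had 167 footprints and 616 and 913 RNA-seq counts, which equal 33.6 RPKM in footprints and 22.02 and 24.9 RPKM in RNA-seq. Its log2 translational efficiency of 0.17 ± 0.14 (interval -0.07 to 0.40) is close to the median of all genes, and it was -0.22 with at least 100 counts required in every library. Against Tapbp, the sum of Tap1 and Tap2 had a log2 ratio of -0.16 and -0.03 in the RNA-seq replicates and of -1.55 in footprints (interval -1.94 to -1.16). The transporter and tapasin were thus at like RNA levels per base, while the footprints of the transporter were lower.

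Irf1, a transcription factor that interferon induces and that activates class I genes, lies at chr11:53770014-53778374 on the plus strand. It had 53 footprints and 246 and 281 RNA-seq counts, or 14.3 RPKM in footprints and 6.91 and 6.05 RPKM in RNA-seq. Its log2 translational efficiency was 0.80 ± 0.12 (interval 0.37 to 1.21). Irf1 was thus below the median of all genes in RNA and in footprints, and above it in their ratio. Its RNA-seq level was 12.1 and 11.1 RPKM on the CDS alone, and with RNA-seq counted there its log2 translational efficiency was 0.25. Without division by length it was 0.14.

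Cd274 encodes PD-L1, lies at chr19:29367455-29388095 on the plus strand and had the fewest counts of the 8 genes. It had 10.9 footprints and 37.6 and 36.7 RNA-seq counts, or 3.54 RPKM in footprints and 1.01 and 0.751 RPKM in RNA-seq. It missed the filters because replicate 2 was under 1 RPKM. Most of its RNA-seq counts, 72.2% and 77.4%, were on the 3′UTR, and 10.4 and 7.78 counts were on the CDS. A log2 translational efficiency of 1.67 ± 0.29 can be computed, with an interval from 0.60 to 2.59, and a pseudocount of 1 RPKM gave 0.96.

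**Figure D3:**
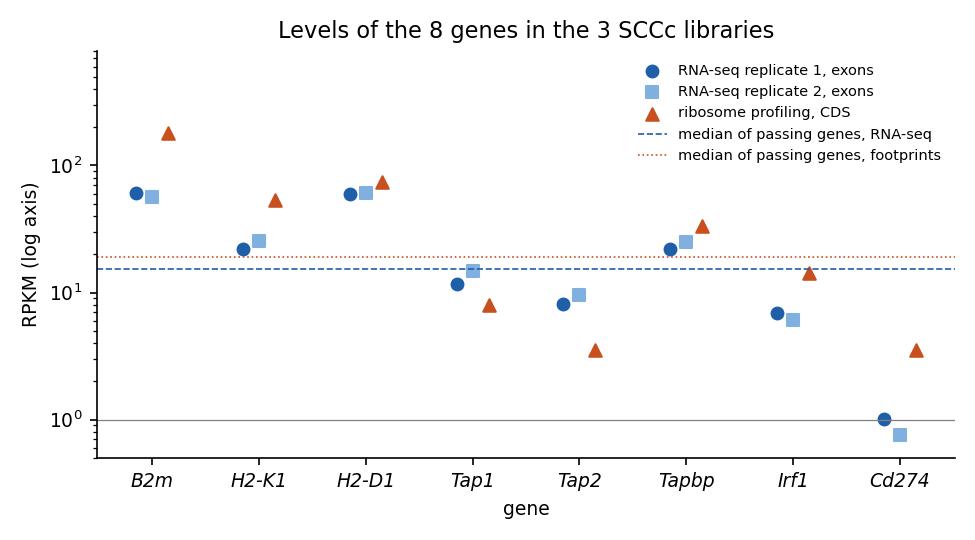
Level in RPKM on a log axis (y) of the 8 genes (x) in ribosome profiling on the CDS and in both RNA-seq replicates on exons. B2m is highest in footprints at 179 RPKM, H2-D1 and B2m are highest in RNA-seq, and Cd274 is lowest in RNA-seq at 1.01 and 0.751 RPKM.

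Ordered by mean RNA-seq level, the genes were H2-D1 (60.0 RPKM), B2m (58.2), H2-K1 (23.8), Tapbp (23.5), Tap1 (13.3), Tap2 (8.81), Irf1 (6.48) and Cd274 (0.878). The neighbours H2-D1 and B2m did not differ beyond the spread of the replicates, and neither did H2-K1 and Tapbp. In footprints the order was B2m, H2-D1, H2-K1, Tapbp, Irf1, Tap1, Cd274 and Tap2, and the last pair, at 3.54 and 3.52 RPKM, did not differ beyond counting error. B2m and H2-D1 were thus level in RNA over exons, while in footprints B2m stood at 9.36 times the median of all genes and H2-D1 at 3.90 times. On the CDS alone, where footprints were counted, they were not level in RNA, at 96.9 and 91.9 RPKM in B2m against 59.9 and 62.4 RPKM in H2-D1.

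Over the 7 genes that passed, the median log2 RNA-seq level was 0.62 and the median log2 footprint level 0.81, each relative to the median of all passing genes, which was 15.3 RPKM in RNA-seq and 19.1 RPKM in footprints. The RNA-seq median was -0.17 when counts were not divided by length. The median log2 translational efficiency was 0.17, with 4 of 7 genes above the median of all genes, a line that 50% of all genes exceed. That count is near the background. From Tap2 to B2m the translational efficiencies spanned 7.69-fold, with an SD of 1.07 on the log2 scale over the 7 genes and of 1.45 over all 9862. The distance from Tap2 to B2m was smaller without division by length, where Tap2 was at -0.90 and B2m at 1.02. The median of the genes was therefore close to that of all genes in translational efficiency, and whether their spread differs from that of all genes was not tested.

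**Figure D4:**
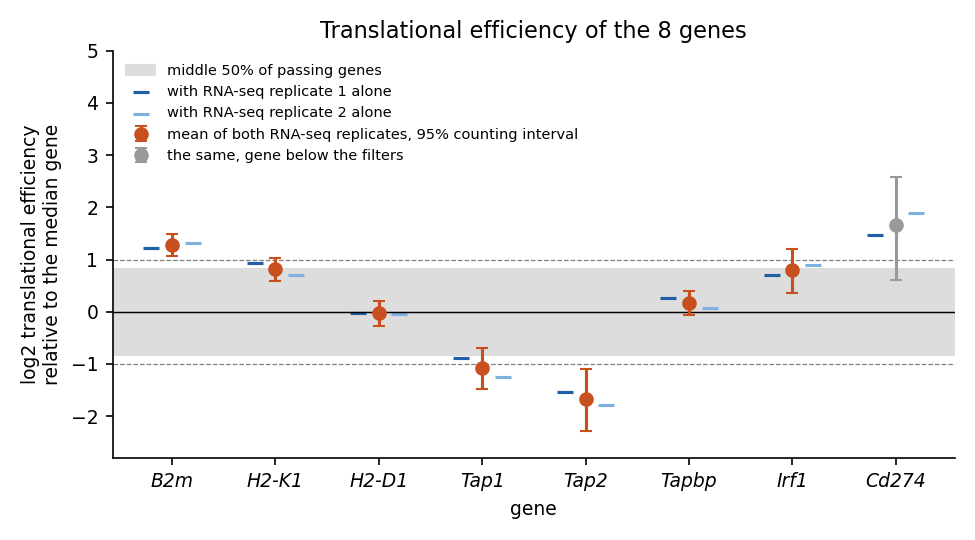
Log2 translational efficiency of the 8 genes relative to the median of all passing genes, with the exact binomial 95% interval of the counts as error bars and the value with each RNA-seq replicate alone as a short line. B2m lies at 1.28, Tap1 and Tap2 at -1.08 and -1.67, and Cd274, which did not pass the filters, has the widest interval, from 0.60 to 2.59.

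The start codon of each gene was read from its GENCODE M21 transcript, because the bases around it are part of what ribosomes read. The sequences of the gene above 1 and of both genes below -1 are given with the ATG in capitals.
B2m: tcagtcgtcagcATGgct
Tap1: agctcacgctcgATGgct
Tap2: gcagaacccaccATGgcg
A purine stood 3 bases before the ATG in 6 of the 8 genes, all but H2-D1 and Tap1, and in 87.3% of 9192 passing genes. A G followed the ATG in 5 of 8 genes and in 54.3% of all. Both were present in B2m, H2-K1 and Tap2, 3 of 8 genes, and in 47.4% of all, so the gene with the highest and the gene with the lowest translational efficiency of the 7 both had this context.

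Promoters were taken from RefSeq (GRCm38.p6), from 250 bases before to 50 bases after the gene start, and 7 of the 8 genes had one, Tap2 being the gene without. Interferon acts through response elements whose core was searched on both strands as GAANNGAAA, and through gamma-activated sites searched as TTCNNNGAA. The former was present in 7.52% and the latter in 8.30% of 32851 promoters. The core occurred in the promoters of H2-K1 and H2-D1, where the capitals mark it on the opposite strand to the gene.
H2-K1: ctccacagTTTCACTTCtgcaccta
H2-D1: ctcctcagTTTCACTTCtgcaccta
The former lies at chr17:34000421-34000445 on the minus strand and the latter at chr17:35262936-35262960 on the plus strand. RefSeq places the start of H2-D1 later than GENCODE M21 does, so its letters lie 150 to 142 bases before the RefSeq start but inside the gene as GENCODE M21 gives it. The gamma-activated letters occurred in the promoter of Irf1, at chr11:53769916-53769940 on the plus strand, in capitals here.
Irf1: agcctgatTTCCCCGAAatgatgag
A match describes the letters of the promoter and does not show that a factor was bound in SCCc.

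The wider pathways of these genes were described with lists, each by its counts and its median, to be read beside all passing genes, of which 50% are above the median, 20.7% above 1 and 21.1% below -1 in log2 translational efficiency. The list of class I heavy chains had 24 names in 21 rows, of which 6 passed, with a median log2 translational efficiency of 0.20 and 3 above the median of all genes. H2-T23, a nonclassical heavy chain, was next to H2-D1 in RNA-seq at 52.8 and 63.8 RPKM, with 41.6 RPKM in footprints and a log2 translational efficiency of -0.83. Above 1 and below -1 there was 1 gene each, H2-T24 (1.26, from 16 footprints) and H2-T22,H2-T9 (-2.08, from 39 footprints), both named after their values were seen. In 13 of the 21 rows the mean RNA-seq level was below 1 RPKM, where 48.2% of all 20188 rows with a counted CDS were. The RNA of the family lay mostly in H2-D1, H2-T23, H2-T22,H2-T9 and H2-K1.

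Peptide supply and loading was covered by a list of 16 genes, with B2m, Tap1, Tap2 and Tapbp among them, and 13 passed. Its median log2 translational efficiency was 1.28, which is the value of B2m, with 9 genes above the median of all genes, 7 above 1 and 2 below -1, and these 2 were Tap1 and Tap2. The general chaperones of the endoplasmic reticulum were the most abundant, with Pdia3 at 199 and 171 RPKM and Canx at 154 and 138 RPKM in RNA-seq. Where every library held at least 100 counts, Calr (2.33) and Hspa5 (2.21) were highest and Psme1 (-0.20) and Tapbp (0.17) lowest in log2 translational efficiency. The others above 1 were Psme2 (2.59), the highest of the 13, Pdia3 (1.71), Canx (1.52), Psmb10 (1.37) and B2m, of which Psme2 and Psmb10 were named after their values were seen.

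The immunoproteasome genes of that list and the regulator Nlrc5, named after their values were seen, differed among themselves. Psmb9, whose gene lies beside Tap1, had 33.9 and 46.9 RNA-seq counts, or 3.93 and 4.15 RPKM, and 0 footprints. Against a floor of 3 footprints, its translational efficiency was at least 3.98-fold lower than the median of all genes. Psmb8 had 1 footprint and 4 and 3.98 RNA-seq counts, and Psmb10 had 84.3 footprints. Nlrc5, which activates the transcription of class I genes, had 0 footprints and 21 RNA-seq counts in each replicate. These equal 0.291 and 0.222 RPKM, below the filter of 1 RPKM. The same floor puts it at least 2.13-fold lower than the median of all genes in translational efficiency. Both bounds leave out the counting error of the RNA-seq level.

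Of the genes for interferon receptors and the JAK-STAT pathway, 17 of 18 passed the filters, where 9862 of all 23698 rows did. Their median log2 translational efficiency was -0.51, with 4 above the median of all genes, 1 above 1 and 7 below -1. Ptpn11 and Jak1 were the highest in RNA-seq at means of 41.7 and 39.7 RPKM, with log2 translational efficiencies of -0.07 and -0.51, the lowest where every library held at least 100 counts. Ptpn2, a phosphatase that dampens JAK-STAT signalling, was at 2.75 and Stat3 at 0.08.

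Of the 12 interferon regulatory factors and related genes, Irf1 included, 9 passed with a median log2 translational efficiency of 0.01, 5 above the median of all genes, 0 above 1 and 2 below -1. Irf3 was at a mean of 33.2 RPKM in RNA-seq with a log2 translational efficiency of 0.01, Irf2 had 0.19 and Irf2bpl had -0.72. Irf1 had the highest translational efficiency of the 9. Between the RNA-seq replicates, 1 of 10 genes with enough counts had a log2 ratio above 1, against 0.843% of all, and this was Irf5 (1.20), with 13.9 and 41.9 counts and 0 footprints, named after its values were seen. The genes below -1 were Irf7 and Irf9, named after their values were seen. Irf7 had 2 footprints beside 120 and 174 RNA-seq counts, a log2 translational efficiency of -4.29 (interval -7.34 to -2.42). Irf9 had 1 footprint beside 78.3 and 93.8 RNA-seq counts, or -3.98 (interval -9.30 to -1.49).

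Genes that interferon induces were covered by the longest list. Of 52 such genes, 50 were found, all but Ifit3b and Rnf213, and 17 passed. In 30 of the 50 the mean RNA-seq level was below 1 RPKM, and 24 had 0 footprints, where the shares of all rows with a counted CDS were 48.2% and 42.9%. The 17 had a median log2 translational efficiency of -0.51, with 6 above the median of all genes, 3 above 1 and 6 below -1. Ifitm3 and Ifitm2 carried most of the RNA of the list, at means of 249 and 186 RPKM, with log2 translational efficiencies of 1.44 and 0.97. Where every library held at least 100 counts, Samhd1 was highest at 2.11, and Ifi204 (-0.51) and Isg20 (-0.47) were lowest. The summed level of the list therefore rested on Ifitm3 and Ifitm2.

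The 10 interferon genes themselves, Ifna1 and Ifna2 among them, had 0 counts in all 3 libraries. Their counted CDS was short, from 53 bases in Ifna1 to 597 in Ifnk, the latter named after its values were seen. At these lengths a floor of 3 counts equals 1.42 to 15.9 RPKM in footprints. Over their counted exons, of 53 to 1207 bases, it equals 0.232 to 5.29 RPKM in RNA-seq replicate 1 and 0.177 to 4.04 RPKM in replicate 2, and lower levels would not have been seen. Of 14 nucleic acid sensors and their adaptors, 8 passed with a median log2 translational efficiency of -0.13, 4 above the median of all genes, 1 above 1 and 1 below -1. Mavs (-0.26) and Tbk1 (0.00) were the highest in RNA-seq, at means of 22.2 and 20.99 RPKM, and Ddx58 had 0.01. The gene above 1 was Mb21d1 (1.55) and the gene below -1 was Ticam1 (-2.22), both named after their values were seen. RNA of the 10 interferon genes was not detectable at this depth. Of the receptor and JAK-STAT genes 17 of 18 passed the filters, and of the sensors 8 of 14 did, against 9862 of all 23698 rows. Among the sensors, 6 of 14 had a mean RNA-seq level below 1 RPKM, against 48.2% of all rows with a counted CDS. Of these 6, 1 had 0 counts in all 3 libraries.

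Checkpoint ligands and their regulators, a list of 15 names with Cd274 among them, were found for 13, all but Vsir and Nectin2. There 7 genes passed with a median log2 translational efficiency of -0.24, 3 above the median of all genes, 1 above 1 and 1 below -1, which were Pvr (1.41) and Icosl (-2.65), named after their values were seen. Cd47 and Cd276 had the most RNA, at means of 38.1 and 30.2 RPKM, with log2 translational efficiencies of 0.55 and -0.24. Cd274, at 0.878 RPKM, was thus a minor ligand by RNA in these cells. Pdcd1lg2, which encodes the other ligand of the same receptor and was named after its values were seen, had 0 counts in all 3 libraries.

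MHC class II presents peptides mainly in professional antigen-presenting cells, and 0 of its 12 genes passed, against 9862 of all 23698 rows. The list summed to 1.10 RPKM in footprints and to 5.35 and 10.8 RPKM in RNA-seq replicates 1 and 2. Of the 5 genes with enough counts, 3 had a log2 ratio of replicate 2 to replicate 1 above 1, where 0.843% of all genes with enough counts did. Cd74 went from 14 to 62.4 counts and had 0 footprints, and H2-DMb1 had 15.5 and 18.7 counts and 0 footprints. The others above 1 were Ctss and H2-Ab1, with 0 footprints each, and these and H2-Eb1 were named after their values were seen. Cd74, Ctss and H2-Ab1 were thus higher in replicate 2, as Lyz2 was, while the ratio was -0.11 in H2-DMb1 and 0.54 in H2-Eb1. In the class I genes it was -0.11 in B2m, 0.22 in H2-K1 and 0.01 in H2-D1. The part of other cells in the class II values was not tested.

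**Figure D5:**
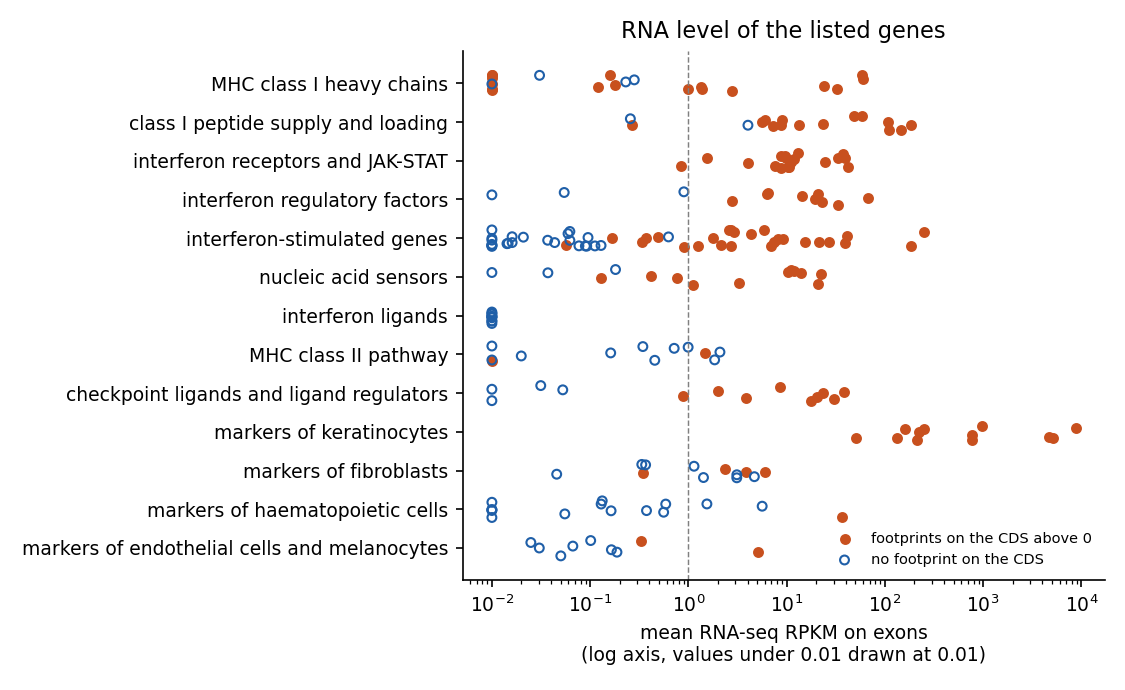
Mean RNA-seq level in RPKM on exons, on a log x axis, of each gene in the lists named on the y axis, with open circles for genes without footprints on the CDS. Interferon ligands are at 0 and drawn at the axis limit, 30 of 50 interferon-stimulated genes lie below 1 RPKM, where 48.2% of all rows with a counted CDS do, and the most abundant gene of the lists is Krt5.

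For each gene that passed, the genes nearest in level were found by Euclidean distance over log2 RPKM in the 3 libraries, and no shared function or control is read from this. B2m was nearest to Mrpl13 (distance 0.03) and Uck2 (0.03), H2-K1 to Ube2g2 (0.05) and Zbtb7a (0.08), and H2-D1 to Trpc4ap (0.07) and Memo1 (0.08). Tap1 was nearest to Mon1a (0.08) and Zfp414 (0.13), and Tap2 to R3hcc1 (0.09) and Sh3d21 (0.09). Tapbp was nearest to Zfand3 (0.05) and Ranbp3 (0.06), and Irf1 to Zfp830 (0.06) and Nipal2 (0.08). Rows of the 8 genes were left out as neighbours.

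The genes modified in SCCc were read beside these. Hras was at 64.0 RPKM in footprints and 48.5 and 50.9 RPKM in RNA-seq, with a log2 translational efficiency of 0.02 ± 0.06. Tgfbr2 was at 30.7 RPKM in footprints and 61.4 and 59.0 RPKM in RNA-seq, with -1.32 ± 0.03. Counts over whole genes show neither a base change nor the loss of single exons, so these values do not check the genotype.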

How the data were processed

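The authors trimmed the reads with Trim Galore, removed ribosome profiling reads that match ribosomal, mitochondrial or transfer RNA with Bowtie2 2.4.1, aligned to GRCm38 with STAR 2.6.1 and counted gene regions with Plastid. The authors deposited estimated counts for each gene region, which need not be whole, and RPKM. The annotation release behind the counts is not stated. Here RPKM was recomputed with each library's summed exon counts as its total.

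Size factors for the base mean were medians of ratios over counts rounded to whole numbers. TMM factors of edgeR 4.0.16 served only as an alternative. Python 3.11.15, numpy 2.4.6, pandas 2.3.3, scipy 1.17.1 and Biopython 1.88 were used, with GENCODE M21 for gene structures. Other alternatives left out a replicate, added a pseudocount, dropped the division by length, counted RNA-seq over the CDS or changed the filters. The calculation was tested on simulated counts, and the outcome is not given here. No interaction test of library type and condition was possible, since it needs the wild-type libraries, which were not analysed here.

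Genes were named by a rule: the 8 genes, the 2 highest of each of 13 lists by RNA-seq, the 2 highest and 2 lowest by translational efficiency where every library held at least 100 counts, the 2 nearest genes, Hras and Tgfbr2. The genes and lists were chosen with earlier results of these data known.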

Additional observations from a re-analysis of the deposited data

How the results depend on the processing

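The medians and counts over the genes, the translational efficiency of each gene and the ratios of Tap1 to Tap2 and, in RNA-seq, of B2m to H2-K1 plus H2-D1 were recomputed with 1 choice changed at a time. The other ratios, the lists, the 3′UTR share and the promoter matches have no alternative. No paired analysis was possible because only 1 condition was available and ribosome profiling carries no replicate number to pair by. Of 108 recomputed values, 76 stayed within a limit, 32 moved past it, and no value past 1 or -1 changed sign. The limit was the SD over the RNA-seq replicates or, for footprints, the counting interval. Counts of genes had a fold limit, and the shares of windows and of counted CDS had fixed cut-offs. Values with a replicate left out stay within the SD by construction, so they say nothing about stability. Of the 68 values of single genes among them, 48 were within that SD, 20 moved and 3 had the opposite sign, which concerned H2-D1 and Tapbp. Calls were lost without a change of sign, by B2m over the CDS and with at least 100 counts, by Tap1 under 4 settings, by Tap2 without division by length (-0.90) and by Cd274 with a pseudocount (0.96) and without division by length (0.68), and H2-K1 passed 1 without division by length (1.26).

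The median log2 translational efficiency of 0.17 was 0.46 with no filter other than a count above 0, 0.54 when a gene needed 80% or more of its annotated CDS counted, and 0.49 with Cd274 added, an alternative chosen after seeing the data. Leaving out a replicate gave 0.08 to 0.27. The number of genes above the median of all was 2 of 4 with at least 100 counts in every library, where only B2m, H2-K1, H2-D1 and Tapbp have a value, 5 of 7 without division by length and with RNA-seq over the CDS, 5 of 8 with no filter other than a count above 0, and 4 of 7 with either replicate left out. Requiring at least 100 counts in every library moved the median log2 RNA-seq level to 0.28 and the median log2 footprint level to 0.29. The RNA-seq level was -0.17 without division by length and 0.44 over the CDS, and 0.51 to 0.71 with a replicate left out. The Tap1 to Tap2 log2 ratio in RNA-seq was 0.84 without division by length, 0.51 over the CDS and 0.53 to 0.64 with a replicate left out. Measured against the longest CDS, the median counted share was 100%. Fewer genes enter under the stricter filters by their construction, and otherwise the cause was not tested.

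Depth limits the footprints most. Tap1, Tap2, Irf1 and Cd274 had fewer than 100 of them, Irf7, Irf9 and Psmb8 at most 2, and a difference within such counting intervals cannot be seen.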

Other observations

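Some rows of these pathways had footprints with almost no RNA-seq counts, and were noticed after their values were seen. H2-T3 had 25 footprints on the CDS beside 0.178 and 0 RNA-seq counts on exons. Ifitm1 had 27.7 footprints beside 1.62 and 2.73 RNA-seq counts, and its counted CDS was 187 bases. Neither gene passed the filters, and the source of these footprints was not tested.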
